A study of Mus musculus with 6 samples.

Results

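The genes described here encode the caseins and whey proteins of mouse milk, with a mucin-like glycoprotein that is also secreted into milk. There are 8 of them among 18193 genes named by the array: Csn1s1, Csn1s2a, Csn1s2b, Csn2, Csn3, Wap, Lalba and Glycam1. A gene was included when a probe set carried its symbol alone, in an old or current form. The brightest such probe set, averaged over the 6 arrays, stands for the gene. All 8 were measured, by 14 probe sets. The rule itself names genes and uses no value, but it was written with earlier results of these data known.

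Caseins are secreted by alveolar epithelial cells of the mammary gland and assemble with calcium phosphate into micelles. Whey proteins stay dissolved, and one of them, alpha-lactalbumin, turns a Golgi galactosyltransferase into lactose synthase. Prolactin acting through JAK2 and STAT5, with glucocorticoid receptor and C/EBP and NFI factors, is the known drive of these genes. They rise in steps during pregnancy, caseins before the late whey proteins.

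The glands came from virgin female mice of 4 months, on an FVB/N background. Whole mammary gland RNA was compared between 3 wild-type arrays (WT 1 to 3) and 3 arrays of mice with a knockout of Caveolin-3, the caveola coat protein of muscle (Cav-3KO 1 to 3). The sources used here do not say which cells were altered first, whether glands were pooled or whether each array was a different mouse, so the spread between arrays may in part be technical. No oestrous stage is recorded in those sources. All values are log2 values made by the authors with RMA, a method that gives 1 value per probe set and array, so a difference of 1 is a 2-fold change.

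Array medians lay between 5.77 and 5.80, and arrays correlated at 0.990 to 0.995 within a genotype and at 0.977 to 0.987 between genotypes. Cav3 itself, the targeted gene, read 4.79, 5.02 and 4.74 in WT 1 to 3 and 4.76, 4.83 and 4.72 in Cav-3KO 1 to 3. These overlap, and since the sources do not place its probe set relative to the deletion, it does not check the genotypes. Markers of mammary epithelium were present on all arrays, with a luminal list mean of 8.36 to 9.76. Of 4 salivary gland genes, which neighbouring tissue could carry, Bpifa2 (2.21 to 2.59) and Dcpp1 (2.63 to 3.0) were near background, while Amy1, an amylase, read 10.22 to 11.39 and Klk1, a kallikrein, 7.0 to 7.16. None of the 4 passed the test between genotypes used below, and their part in the results was not tested. Background is taken here from 13 Y-linked probe sets, which read a median of 2.80 on these female arrays. Their single values ran from 1.90 to 6.36, so the level differs between probe sets. Near background means close to that median.

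The stretch before the start of a milk protein gene is where STAT5 is known to act, so the 250 bases before the RefSeq start (build GRCm38.p6) were read for the members that this report turns on. The motif searched for STAT5 was TTCNNNGAA, which reads the same on both strands, and it stands in capitals in the 3 sequences that hold it, each written 5′ to 3′ on the strand of the gene.
Csn1s1, chr5:87665958-87666207, plus strand: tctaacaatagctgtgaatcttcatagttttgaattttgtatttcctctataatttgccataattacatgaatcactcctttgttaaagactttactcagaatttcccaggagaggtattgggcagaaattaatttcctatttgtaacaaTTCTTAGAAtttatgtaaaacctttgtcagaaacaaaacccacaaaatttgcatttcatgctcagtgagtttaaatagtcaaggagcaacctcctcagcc
Csn2, chr5:87699426-87699675, minus strand: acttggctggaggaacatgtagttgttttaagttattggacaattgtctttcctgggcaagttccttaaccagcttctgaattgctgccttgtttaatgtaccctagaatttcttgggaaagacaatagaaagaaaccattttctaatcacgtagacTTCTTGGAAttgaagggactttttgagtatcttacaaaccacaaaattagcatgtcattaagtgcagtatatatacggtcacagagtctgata
Glycam1, chr15:103565082-103565331, minus strand: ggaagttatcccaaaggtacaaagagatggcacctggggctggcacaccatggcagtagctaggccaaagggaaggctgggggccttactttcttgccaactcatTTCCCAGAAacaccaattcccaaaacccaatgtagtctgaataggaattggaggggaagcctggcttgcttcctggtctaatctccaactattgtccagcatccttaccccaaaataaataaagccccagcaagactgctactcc

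In Csn1s1 the match lay 100 to 92 bases before the start, in Csn2 93 to 85 bases and in Glycam1 145 to 137 bases. A match was found in 3 of the 6 members with a promoter entry, and in 7.02% of 32851 promoter windows of the same length. The windows of Csn1s2a, Wap and Lalba did not hold these letters. The NFI motif, TGGC and GCCA with 5 bases between them (0.703% of windows) and the C/EBP motif TTNNGCAA (9.56% of windows), searched on both strands, were in 0 of the 6. Csn1s2b and Csn3 had no entry. A match of letters is a description and was not tied to binding in these samples.

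The comparison asked whether milk protein transcripts differ in the gland without caveolin-3, the lactogenic theme named in the series title. Of the 5 caseins, 4 rose past the threshold of an adjusted p of 0.05 by limma: Csn1s1, Csn2, Csn1s2a and Csn3. Csn1s1, Csn2 and Csn1s2a were 11.3-fold to 13.9-fold higher and Csn3 was 2.10-fold higher. Csn1s2b, Wap, Lalba and Glycam1 did not pass. In the same direction 7.65% of all genes passed, and the median difference was 3.01 over the 8 members against -0.01 over all genes. Without WT 1, WT 3 or Cav-3KO 3 a single member passed each time, and it was Csn1s1 (1 of 8). The share of all genes that passed in this direction also dropped in these fits, to 4.64%, 3.63% and 3.46%. Without Cav-3KO 2 the median difference was 1.59. In whole tissue, more cells of a type and more RNA per cell cannot be told apart.

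**Figure D1:**
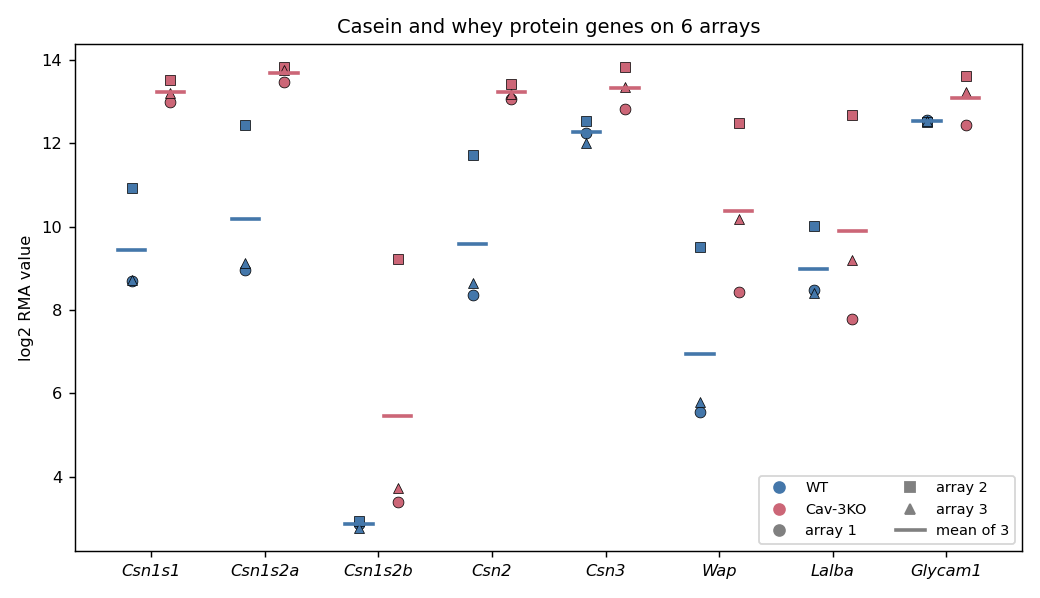
Log2 RMA value of each casein and whey protein gene on the 3 WT (blue) and 3 Cav-3KO (red) arrays, with the array number as the symbol and the mean of 3 as a bar. Csn1s1, Csn1s2a and Csn2 sit between 12.98 and 13.82 on all Cav-3KO arrays, while WT 2 stands above WT 1 and WT 3; the WT and Cav-3KO arrays overlap for Wap, Lalba and Glycam1.

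Csn2 encodes beta-casein, a main protein of the micelle. It read 8.36, 11.71 and 8.65 in WT 1 to 3 and 13.06, 13.43 and 13.18 in Cav-3KO 1 to 3. All Cav-3KO arrays lay above all WT arrays, and WT 2 stood well above the other WT arrays. The log2 difference was 3.65 ± 0.77 (SE, limma adjusted p = 0.0226), a 12.6-fold rise. The call was lost without WT 1, WT 3, Cav-3KO 1 or Cav-3KO 3, at adjusted p of 0.0628, 0.0791, 0.0529 and 0.0770. Without WT 2 the difference was 4.72 and the adjusted p was 9.8e-05.

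Csn1s1, alpha-s1-casein, is a calcium-binding phosphoprotein of the micelle. Its values were 8.69, 10.92 and 8.71 in wild type and 12.98, 13.51 and 13.21 in knockout. The gap between the lowest Cav-3KO and the highest WT array was 2.06, the widest among the members by the shown probe sets. The rise of 3.79 ± 0.54 (SE, adjusted p = 0.00613) kept its call when any 1 array was left out, with differences between 3.42 and 4.53.

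Csn1s2a, an alpha-s2-like casein, read 8.97, 12.45 and 9.13 in wild type and 13.47, 13.82 and 13.76 in knockout. WT 2 was again the WT array nearest to the knockout values, 1.02 below the lowest of them. The rise was 3.50 ± 0.82 (SE, adjusted p = 0.0310). It passed without WT 2 (adjusted p = 8.4e-05), and did not without WT 1, WT 3, Cav-3KO 1, Cav-3KO 2 or Cav-3KO 3 (0.0871, 0.103, 0.0672, 0.0584 and 0.101).

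Csn3 encodes kappa-casein, which coats and stabilises the micelle. It was already high in virgin wild-type gland, at 12.25, 12.53 and 12.01, against 12.83, 13.83 and 13.34 in knockout. The groups did not overlap, and the rise was 1.07 ± 0.24 (SE, adjusted p = 0.0287). The call was lost without WT 1 (0.0786), WT 3 (0.0996) or Cav-3KO 3 (0.0933).

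Csn1s2b, the other alpha-s2-like casein, read 2.86, 2.93 and 2.77 in wild type, at the level of the Y-linked sets. In knockout it read 3.40, 9.23 and 3.73. Only Cav-3KO 2 stood clear of background, while the groups did not overlap. The difference was 2.60 ± 1.35 (SE, 95% interval -0.53 to 5.73, adjusted p = 0.263). Without Cav-3KO 2 it was 0.71, with an adjusted p of 0.0136. Of all genes, 18.5% had their 3 knockout arrays above their 3 wild-type arrays, as 5 of the 8 members had; 19.8% had them below, as 0 of the 8 had.

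Among the whey proteins, Wap encodes whey acidic protein, a relative of small protease inhibitors and a marker of late pregnancy. It read 5.56, 9.5 and 5.79 in WT 1 to 3 and 8.43, 12.48 and 10.19 in Cav-3KO 1 to 3. WT 2 lay above Cav-3KO 1, so the groups overlapped. WT 1 and WT 3 lay within the range of the Y-linked sets, whose highest value was 6.36. The difference of 3.42 ± 1.24 (SE) did not pass (adjusted p = 0.118). The 95% interval ran from 0.55 to 6.29. Without WT 2 the difference was 4.70 and passed (adjusted p = 0.0425).

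Lalba encodes alpha-lactalbumin, the subunit that gives lactose synthase its specificity. Its values were 8.49, 10.02 and 8.41 in wild type and 7.78, 12.68 and 9.19 in knockout. Cav-3KO 1 was the lowest of the 6 arrays and Cav-3KO 2 the highest. The difference was 0.91 ± 1.11 (SE, 95% interval -1.65 to 3.47, adjusted p = 0.663). Without Cav-3KO 2 it turned to -0.49.

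Glycam1 is a mucin-like glycoprotein secreted into milk and also made by high endothelial venules of lymph nodes. It read 12.57, 12.51 and 12.54 in wild type, a range of 0.06, and 12.43, 13.61 and 13.23 in knockout. Cav-3KO 1 lay below every wild-type array. The difference was 0.55 ± 0.26 (SE, 95% interval -0.06 to 1.15, adjusted p = 0.223), and it passed without Cav-3KO 1 (0.88, adjusted p = 0.0127).

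A two-sided exact permutation test over the 6 arrays gave p = 0.1 for each casein, the smallest that 3 against 3 arrays allow. It gave 0.2 for Wap, 0.7 for Lalba and 0.4 for Glycam1. These values were not adjusted for the number of members.

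The size of the rise depended on the probe set. Of the 14 probe sets 9 passed in the upward direction, against 5.74% of all probe sets. Csn2 has 2 sets: the brighter gave 3.65, and the other rose by 5.26 ± 0.86 (SE, adjusted p = 0.00951), 38.4-fold, from 6.81, 10.47 and 7.09 to 12.96, 13.81 and 13.38. WT 2 was the high WT array in both sets. Csn3 also has 2, which rose by 1.07 and by 1.68 ± 0.34 (SE, adjusted p = 0.0197).

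Csn1s2a has 5 probe sets, and 4 of them rose. The brightest 2 gave 3.50 and 3.89, and the next gave 7.35 ± 1.02 and 6.34 ± 0.71 (SE, adjusted p = 0.0055 and 0.00265). In the set with the steepest rise the wild-type values were 3.14, 7.52 and 3.43, and the knockout values 11.70, 12.35 and 12.08. WT 1 and WT 3 were thus near background in this set and WT 2 was not, with every knockout array at least 4.19 above it. The fifth set stayed between 3.23 and 3.57 on all arrays, near background, with a difference of 0.19 ± 0.09.

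**Figure D2:**
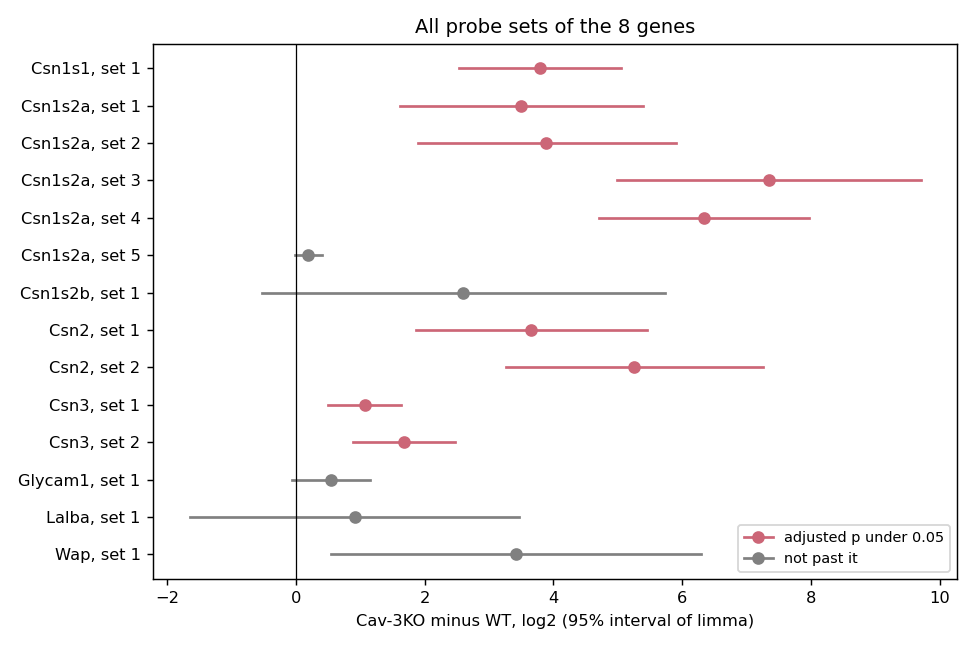
Log2 difference, Cav-3KO minus WT, with its 95% interval from limma, for all 14 probe sets of the 8 genes, numbered within a gene from the brightest mean down. Red marks the 9 sets past an adjusted p of 0.05; sets 3 and 4 of Csn1s2a give 7.35 and 6.34 where its brightest set gives 3.50.

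The brightest values lay close to the top of the arrays, whose highest single values were 13.98 to 14.19. On Cav-3KO 2, 7 of the 8 members were above the 99th percentile of the array, on Cav-3KO 1 and 3 there were 5 each, and on WT 1 to 3 there were 2, 3 and 1. The SD over 3 arrays of Csn2 was 1.86 in wild type and 0.19 in knockout, and that of Csn1s2a 1.96 and 0.19. Csn1s1 had 1.28 and 0.27. The order was the other way for Csn1s2b (0.08 and 3.27), Lalba (0.91 and 2.52), Glycam1 (0.03 and 0.60) and Csn3 (0.26 and 0.50), and Wap varied in both (2.21 and 2.03). The part of the upper end of the scale in these SDs was not tested.

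Arrays of the same genotype differed more in these genes than in most. The within-genotype SD of the members lay at percentiles 95 to 100 of all genes, whose median SD was 0.14. Cav-3KO 2 was the highest knockout array for all 8 members and Cav-3KO 1 the lowest knockout array for all 8. Over all genes Cav-3KO 2 was the highest knockout array in 35.0% and Cav-3KO 1 the lowest in 32.7%. WT 2 was the highest wild-type array for 7 of the 8, against 32.9% of all genes, with Glycam1 as the exception.

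The arrays numbered 2 stood out in different members. WT 2 exceeded the mean of WT 1 and 3 by 3.82 for Wap, 3.40 for Csn1s2a, 3.21 for Csn2 and 2.22 for Csn1s1, but by 0.12 for Csn1s2b and -0.05 for Glycam1. Cav-3KO 2 exceeded the mean of Cav-3KO 1 and 3 by 5.66 for Csn1s2b, 4.19 for Lalba and 3.17 for Wap, but by 0.31 for Csn2 and 0.21 for Csn1s2a. Lalba was raised on both, by 1.57 on WT 2, as was Wap, and Csn3 by 0.40 and 0.74. The deviations from the genotype means of Csn1s1, Csn1s2a and Csn2 followed each other over the 6 arrays (Pearson r of 0.99 to 1). Those of Csn1s2b, Csn3, Lalba and Glycam1 did so with r of 0.78 to 0.95. These were not separate groups. Wap had r of 0.79 to 0.86 with Csn1s1, Csn1s2a and Csn2, and of 0.62 to 0.89 with Csn1s2b, Csn3, Lalba and Glycam1. Between Csn3 and Csn1s1 r was 0.58. Between Csn2 and Glycam1 r was 0.05. These are descriptions over 6 arrays that share WT 2 and Cav-3KO 2 as their extremes.

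**Figure D3:**
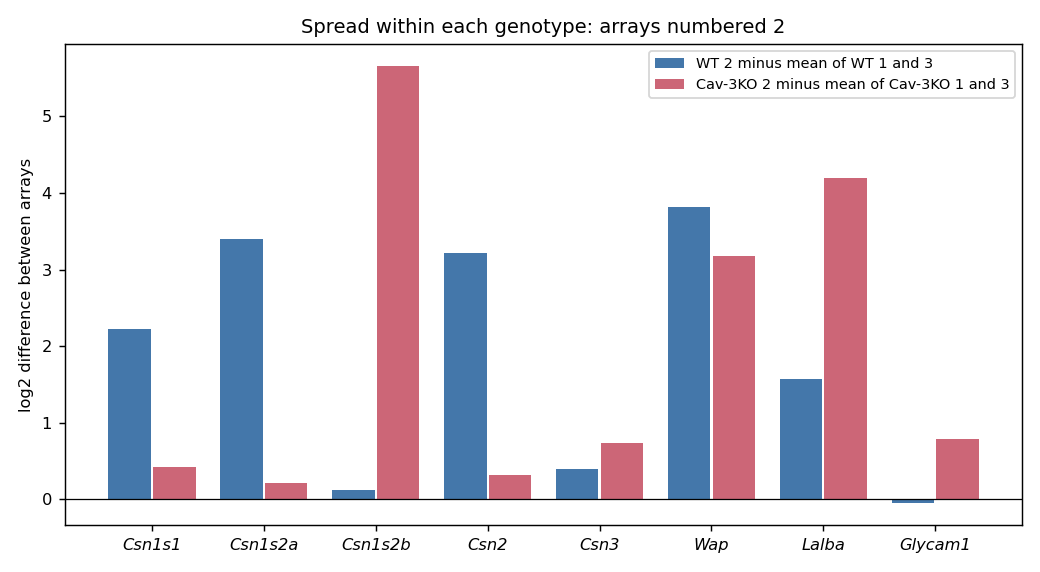
Bars give, for each gene, the log2 value of WT 2 minus the mean of WT 1 and 3 (blue) and of Cav-3KO 2 minus the mean of Cav-3KO 1 and 3 (red). WT 2 is raised most for Wap (3.82) and Csn1s2a (3.40), and Cav-3KO 2 most for Csn1s2b (5.66) and Lalba (4.19).

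Without both arrays numbered 2, a choice made after the data were seen, 6 members passed: Csn1s1, Csn2, Csn1s2a, Csn3, Csn1s2b and Wap. The differences were then 4.39, 4.62, 4.56, 0.96, 0.75 and 3.64. In that fit 6.39% of all genes passed in the same direction. Lalba was at 0.04 and Glycam1 at 0.27, and neither passed. The lone pair of arrays left in each genotype limits this comparison.

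Markers of the cells that make milk, and of neighbours that do not, were read beside these values. The luminal epithelium list rose in 13 of 16 measured genes and fell in 0, with a median of 1.20. Of all genes 7.65% rose and 8.51% fell. Epcam, an adhesion protein of epithelial cells, rose by 1.55 ± 0.13 (SE, adjusted p = 0.00106). The list mean was 8.90, 8.36 and 8.59 in WT 1 to 3 and 9.76, 9.64 and 9.74 in Cav-3KO 1 to 3, with no overlap. Within each genotype, the array numbered 2 had the lowest luminal mean of its group and the highest mean of the casein and whey protein genes, 10.32 against 8.47 and 8.50 in wild type and 12.82 against 10.55 and 11.23 in knockout. With the luminal mean as a covariate no member passed, and 0 of 18193 genes did, while the differences grew, to 8.02 ± 1.16 for Csn1s1 and 9.88 ± 1.51 for Csn2 (SE, adjusted p = 0.578 for both). The luminal means of the genotypes do not overlap, so this fit cannot separate the luminal mean from genotype. Its differences are for an equal luminal mean, which no WT and Cav-3KO array shared. Nothing is drawn from the lost calls or from the larger differences.

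Basal and myoepithelial genes, whose cells squeeze milk from the alveoli, rose in 10 of 11, with a median of 0.77. The share of all genes that rose was 7.65%. The counts were 6 and 5 without WT 1 or WT 3, where 4.64% and 3.63% of all genes rose. White adipocyte genes fell in 7 of 10 and rose in 0, with a median of -0.73, where 8.51% of all genes fell. The count was 4 without Cav-3KO 3, where 606 of 18193 genes fell, against 1549 with all arrays. Of the luminal progenitor list 1 of 4 genes rose, with a median of 0.74, and none without any 1 of the WT arrays or without Cav-3KO 3. Of the hormone-sensing luminal list 1 of 7 rose and 3 fell, with a median of -0.27, and 1 fell without WT 1, WT 3 or Cav-3KO 3. In those fits 970, 810 and 606 of all genes fell. The number of this list that rose was 0 without WT 2, WT 3, Cav-3KO 1 or Cav-3KO 3, and 2 without Cav-3KO 2. The skeletal muscle list, with 0 of 12 genes past the threshold (2 lower without WT 3 and 1 with the filter on dim probe sets), had means of 8.20, 9.5 and 6.09 in wild type and 5.62, 6.99 and 7.68 in knockout, so WT 2, the wild-type array high in caseins, was also the highest in muscle genes. The part of these shifts in tissue makeup in the casein and whey protein values was not tested.

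For Glycam1 the lymph node list matters, since high endothelial venules also make it. Of 11 measured genes 6 fell, among them the B cell genes Ms4a1 by 0.88 and Fcer2a by 1.0, with a list median of -0.58. Over all genes 8.51% fell. The count was 4 without WT 2, WT 3 or Cav-3KO 3. In those fits 951, 810 and 606 of 18193 genes fell, against 1549 with all arrays. Madcam1, an adhesion molecule of venules in mucosal lymphoid tissue, rose by 1.57 ± 0.23 (SE, adjusted p = 0.00619). The sulfotransferase gene Chst4, which acts on Glycam1 in venules, differed by -0.41 ± 0.12 (adjusted p = 0.0562). List means of 7.54, 7.52 and 7.80 in wild type and 7.17, 7.12 and 7.15 in knockout did not overlap, while Glycam1 was lowest in Cav-3KO 1 and highest in Cav-3KO 2. Its source among these cells was not tested.

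**Figure D4:**
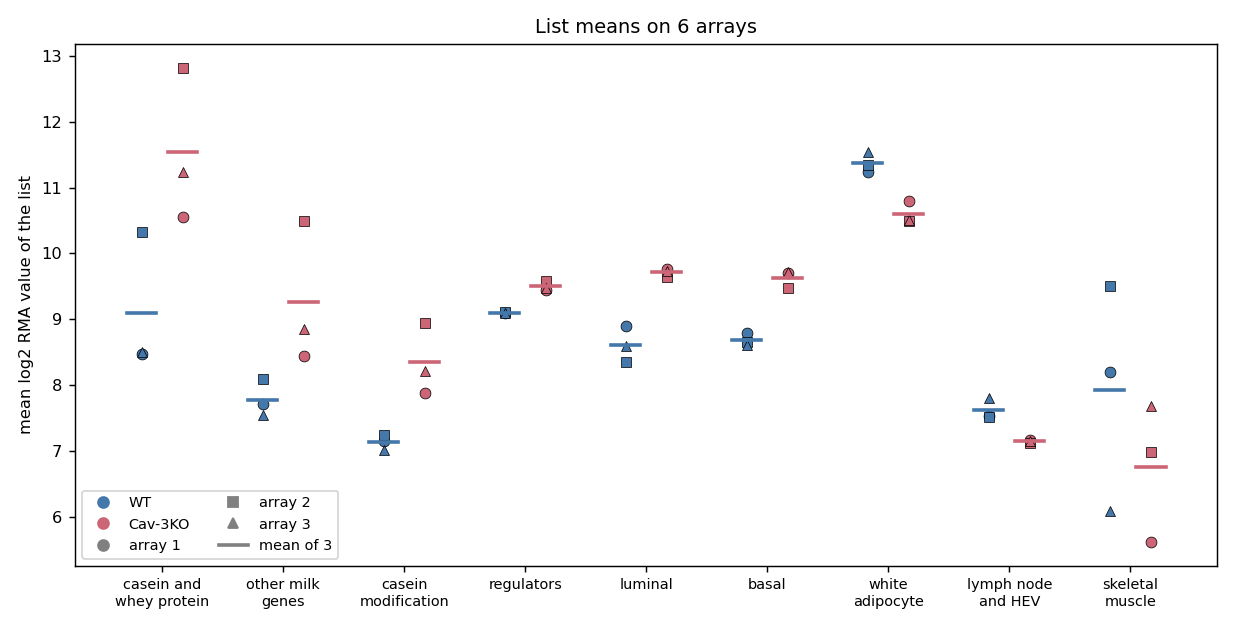
Mean log2 RMA value of each gene list on the 3 WT (blue) and 3 Cav-3KO (red) arrays, with the array number as the symbol and the mean of 3 as a bar. The casein and whey protein mean runs from 8.47 to 12.82, while the luminal mean stays within 9.64 to 9.76 on the Cav-3KO arrays; levels of different lists are not comparable.

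Other milk genes shared part of this picture. Of 22 measured genes of milk secretion outside the 8, 7 rose and 0 fell, with a median of 1.22. Over all genes 7.65% rose and 8.51% fell. The membrane mucin Muc15 rose by 2.71 ± 0.23 (SE, adjusted p = 0.00117). Wfdc18, a relative of Wap, rose by 3.22 ± 0.30 (adjusted p = 0.00133), from 8.77, 9.73 and 8.59 to 11.91, 12.55 and 12.29, with WT 2 again the highest wild-type array. Olah, which releases medium-chain fatty acids, and Pigr, which carries antibody into milk, rose by 4.77 ± 0.80 and 4.49 ± 0.77. The count was 4 without WT 3, and without Cav-3KO 2 there were 9 higher and 3 lower. In these fits 3.63% and 9.44% of all genes rose. Cav-3KO 2 was the highest knockout array in 21 of the 22.

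Genes that modify caseins in the Golgi were measured as well. Of 7, 3 rose and 0 fell, with a median of 0.93, where 7.65% of all genes rose and 8.51% fell. Fam20c is the kinase that phosphorylates caseins, and it rose by 2.27 ± 0.31 (SE, adjusted p = 0.00518), from 6.94, 7.11 and 7.51 to 8.75, 10.07 and 9.55. Fam20a, the pseudokinase that activates it, read 7.09, 7.18 and 7.0 in wild type and 10.03, 10.85 and 10.63 in knockout. Its rise of 3.41 ± 0.20 (SE, adjusted p = 0.000402) was free of the high WT 2 value seen in the caseins. Gcnt1, a branching enzyme of O-glycans, rose by 0.93 ± 0.13 (adjusted p = 0.0062). All 3 passed when any 1 array was left out. The Golgi calcium pump gene Atp2c2, at 6.60, 9.12 and 7.0 in knockout against 5.48, 5.99 and 5.32, did not pass (adjusted p = 0.0654).

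Of 8 measured genes of lactose synthesis, the pathway of Lalba, 0 passed as higher and 1 as lower, with a median of 0.16. Of all genes 7.65% passed as higher and 8.51% as lower, so these counts are near those shares. Hk1, a hexokinase, differed by 0.38 ± 0.10 (SE, 95% interval 0.14 to 0.62, adjusted p = 0.0509), with every knockout array above every wild-type array. The count of higher genes was 1 with median centring, the filter on dim probe sets, array weights, averaged probe sets or the replicate block, and 2 at a threshold of 0.10. B4galt1, the galactosyltransferase that alpha-lactalbumin binds, read 9.63, 9.59 and 9.58 in wild type and 9.69, 10.52 and 9.93 in knockout (0.45 ± 0.19, adjusted p = 0.177). Its highest array was Cav-3KO 2, as for Lalba. The gene that fell was Hk2, another hexokinase, by 2.10 ± 0.31 (SE, adjusted p = 0.00671).

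Of the known regulators of milk protein genes, 23 were measured. Of these, 5 rose and 1 fell, with a median of 0.21, where 7.65% of all genes rose and 8.51% fell. Prlr, the prolactin receptor, had no probe set named for it alone. Ehf and Elf5, ETS factors of alveolar cells, rose by 2.38 ± 0.22 and 2.31 ± 0.27 (SE, adjusted p = 0.0013 and 0.00314). Stat5a, which carries the prolactin signal, rose by 0.74 ± 0.15 (adjusted p = 0.0202, and 0.0776 without Cav-3KO 3). Nfib rose by 0.76 ± 0.10 and Gata3 by 0.82 ± 0.12. Nfia, another NFI factor, fell by 0.40 ± 0.10 (adjusted p = 0.0353), and lost its call without WT 1, WT 2, WT 3, Cav-3KO 1 or Cav-3KO 3 (0.106, 0.109, 0.0563, 0.0739 and 0.118). In WT 1 to 3 Elf5 read 10.67, 10.36 and 9.81 and Stat5a 8.98, 8.53 and 9.06. WT 2 was the highest wild-type array for neither, while it was for each casein. Against the mean of WT 1 and 3, WT 2 differed by 0.13 for Elf5 and -0.49 for Stat5a. For the casein Csn1s2b that value was 0.12.

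The 5 caseins lie in a single cluster, with 2 measured genes among them that are no caseins. Prr27 and Odam, the latter a protein of enamel-forming cells, read between 4.71 and 5.04 and between 2.22 and 2.89, with differences of -0.13 ± 0.10 and 0.22 ± 0.15 (SE). Of these 2 and the 5 nearest measured genes on either side, 0 rose and 1 fell. Of all genes 7.65% rose and 8.51% fell, so these counts are near those shares. With averaged probe sets 1 rose, and the filter on dim probe sets left 1 of the 12. The sulfotransferase gene Sult1e1, the nearest on the side of Csn1s1, read 2.70, 2.69 and 2.83 in wild type and 2.66, 2.59 and 2.69 in knockout. Amtn, another gene of enamel formation, fell by 1.42 ± 0.13 (adjusted p = 0.0013). Its values, 4.42 to 6.10, all lay within the range of the Y-linked sets, 1.90 to 6.36. Smr2, a salivary gland gene, differed by -0.96 ± 0.41 (adjusted p = 0.180), with WT 2 the highest at 7.49. Most of the other neighbours read near the Y-linked median on all arrays.

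**Figure D5:**
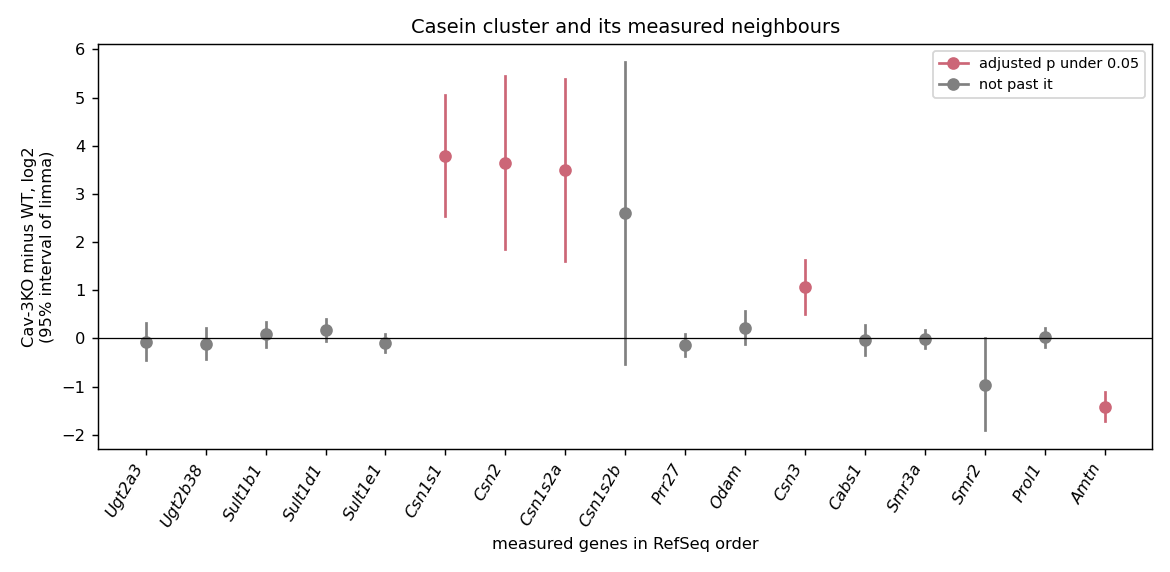
Log2 difference, Cav-3KO minus WT, with its 95% interval from limma, for measured genes in RefSeq order along the casein cluster and 5 on either side. Red marks an adjusted p under 0.05: Csn1s1, Csn2, Csn1s2a and Csn3 lie above 0, Prr27 and Odam between them lie near 0, and Amtn lies at -1.42.

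The genes whose deviations from the genotype means most resembled those of the mean of the 8 members were sought among 1812 genes with a within-genotype SD in the top 10%. The 5 nearest over the 6 arrays were Ell2 (Pearson r = 0.999), Bpnt1 (0.986), Pigr (0.981), Saa1 (0.981) and Stimate (0.978). Ell2, an elongation factor that serves secretory cells, read 9.15, 9.73 and 9.19 in wild type and 9.01, 9.75 and 9.25 in knockout, so its 2 high arrays were WT 2 and Cav-3KO 2 and its groups overlapped (difference -0.02 ± 0.22). Saa1, an acute-phase protein, read 4.78, 8.27 and 3.96 and then 6.07, 12.80 and 8.06, with the same high arrays. Its difference of 3.31 ± 1.71 did not pass (adjusted p = 0.261). The order rests on 6 arrays and 2 extremes.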

How the data were processed

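The authors deposited a log2 value for every probe set of every array. The submitters' processing notes name RMA, without a version in the sources used here. RMA quantile normalizes arrays, so a shift of most transcripts one way would be removed, and it compresses folds of dim and very bright probe sets. Of 45101 probe sets, 64 controls were left out and 45037 tested without a filter. Symbols came from the platform annotation, with 34945 sets of 1 symbol, 932 of several and 9160 unnamed, and were updated by Entrez identifier through RefSeq (GRCm38.p6), where 204 had no match. Groups came from sample titles. Knockout minus wild type was fitted with limma 3.58.1 in R 4.3.3 (lmFit, eBayes, two-sided, 4 residual degrees of freedom), with Benjamini-Hochberg adjustment over all probe sets and a threshold of 0.05. The number of arrays, 3 per genotype, limits the precision. The fit was also run on data simulated with variances from limma's own prior. It recovered 10% of log2 changes of 0.5, 78% of 1, 98% of 2 and 100% of 4. The members vary more than most genes, so this run does not show how often changes in them are found.

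Members and 12 gene lists were chosen with earlier results of these data known. Named genes are the members, at most 4 genes of each list by smallest p, neighbours of the casein cluster, the 5 genes nearest in pattern and Cav3. B4galt1, Chst4, Stat5a, Nfia, Atp2c2, Bpifa2 and Prr27 to Amtn were named for their role, place or sign. Alternatives were 3 normalizations, a filter, another prior, array weights, other probe sets, each array left out, a replicate block, a luminal covariate and other thresholds. The replicate numbers did not meet the criterion for pairing, a correlation of deviations over 0.1 in every pair; only the arrays numbered 2 did. Figures were drawn with matplotlib 3.10.9.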

Additional observations from a re-analysis of the deposited data

How the results depend on the processing

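The number of members past the threshold, 4 by limma, was 2 with limma's trended, robust prior (Csn1s1 and Csn3), 1 at an adjusted p of 0.01 and 0 with the luminal mean as a covariate, where the median difference was 7.0 and 0 genes passed at all. It ranged from 1 to 5 when each array was left out, and the median difference from 1.59 to 3.62. The share of all genes that rose past the threshold ranged from 3.46% to 9.44% in the same fits. Other normalizations, array weights, averaged probe sets, the filter on dim sets and a threshold of 0.10 each gave 4. The filter removed Csn1s2b. Preferring probe sets that match a single transcript also gave 4, but among the members it changed Csn1s2a alone, to a difference of 7.35. Csn1s1, Csn2, Wap and Glycam1 have no such set and kept the same values, so for them it was no further check. Lalba was the sole member to turn sign, to -0.49 without Cav-3KO 2; its highest difference with 1 array left out was 1.96, without Cav-3KO 1. Array numbers are shared by the genotypes but were not taken to pair them: deviations of same-numbered arrays correlated at -0.054, 0.185 and -0.018. With the replicate number as a block 5 members passed, Wap among them with an adjusted p of 0.00341, and 7.81% of all genes rose. Among the 6 arrays 2 correlated best with their own number, those numbered 2. The cause of these changes was not tested. No depth applies to arrays; Csn1s2b in wild type lay at background, which limits what its difference can show.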
